A study of Danio rerio with 8 samples.

Results

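Axon guidance ligands and receptors were followed in dissected zebrafish hindbrains with and without an active form of the Fgf receptor Fgfr1. The members were the genes whose symbol belongs to the semaphorin, plexin A to D, Nrp1 and Nrp2, netrin, Unc5, Robo, Slit or Dcc families. The symbols matched 68 of 32189 gene IDs. One of these, UNC50, fits by its letters only, since it encodes a protein of the Golgi and no netrin receptor, which leaves 67 guidance genes. The transgenic hindbrains (called ca_fgfr1 here, n = 4) carried the transgene Tg(hsp70:ca-fgfr1), in which a heat-inducible promoter that is not restricted to the hindbrain drives constitutively active fgfr1. The control hindbrains (n = 4) were wild type for the transgene and, per the study's methods, came from the same heat-shocked clutch of an outcross, so that every embryo of both groups had been heated. Embryos were raised at 28.5°C, heated to 38.5°C for 30 min at 22 hours post-fertilisation (hpf), returned to 28.5°C for 2 h and dissected at 24 to 25 hpf. Each library was made from 1 hindbrain with its surrounding tissues, and the groups were told apart in the study by qPCR on the extracted RNA.

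Growing axons read secreted and membrane-bound cues on their way. Semaphorins bind plexins, and most secreted semaphorins of class 3 need a neuropilin as co-receptor. Netrins attract axons through Dcc and repel them through Unc5 receptors, and Slits repel axons that carry Robo receptors, above all at the midline of the hindbrain and spinal cord. In the zebrafish hindbrain, semaphorins from segment boundaries are also known to hold the neurons that make Fgf20 at the segment centres. The comparison asked how these genes differed between hindbrains with activated Fgfr1 and their controls.

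The ca_fgfr1 libraries held 15327169 to 20541155 counts and the control libraries 13173019 to 17980114. Members of the Fgf response list, which report on receptor activity, had a summed level of 1310 to 2180 CPM (counts scaled to the size of each library) in ca_fgfr1 and 582 to 803 CPM in controls. Of its 15 tested genes, 14 were higher in ca_fgfr1, as were 8298 of all 18075 tested genes. The 14 include SPRED1 and etv5a, with log2 fold changes of 0.02 and 0.04. At an unadjusted edgeR p under 0.05, 8 were higher, beside 2.14% of all genes. Only 1, SPRY2, reached an adjusted p of 0.05 (edgeR adjusted p = 0.0409), beside 0.0498% of all genes. Neither of the 2 IDs named FGFR1 passed the test (log2 fold changes of 0.08 ± 0.26 and -0.46 ± 0.40 SE, edgeR adjusted p = 0.975 and 0.884), so these counts do not show the transgene itself. Control replicate 1 stood apart from the other libraries of its group. Its mean correlation with them across genes was 0.893, against 0.926 to 0.940 for the other controls, and its scaling factor was 0.811, against 0.940 to 1.15 elsewhere. The counts of members, the family medians and several members are given with and without it.

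No guidance gene passed the test. Of the 68 matched genes, 59 passed the filter on low counts. The other 9 (ntn5, plxnb2a.3, sema3h, sema4aa, UNC5A, both IDs named SEMA4G and 1 ID each named UNC5C and UNC5D) reached at most 23 counts in any library and 8 of them at most 12. None of the 59 met the study's criteria in edgeR (adjusted p of 0.01 or less, fold change of at least 2 and a normalised count above 30 throughout a group), which 0.0166% of all 18075 tested genes did. None reached an adjusted p of 0.05 or less either, which 0.0498% of all genes did, and the smallest adjusted p of a member was 0.789. At an unadjusted p under 0.05 stood 7 of the 59 members (11.9%) in edgeR, 7 in limma-voom and 12 in DESeq2, beside 5.34%, 5.36% and 6.82% of all genes in the same order. The 7 in edgeR were 6 lower genes (plxnb2b, ROBO1, PLXNA3, SEMA6C, SEMA4B ENSDARG00000074414 and SEMA3G) and 1 higher gene (sema3ga), where 3.21% of all genes were lower at this level and 2.14% higher. DESeq2 and limma-voom also called no member with all libraries, where the study's criteria took 0.249% and 0.0332% of all genes and an adjusted p of 0.05 took 0.454% and 0.0553%.

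The point estimates leaned to one side. In 52 of the 59 members (88.1%) the log2 fold change was below 0, as it was in 54.1% of all tested genes, and the median over members was -0.56, beside -0.04 over all genes. In whole dissections, fewer cells of a type and less RNA per cell cannot be told apart. All tested members were lower in ca_fgfr1 among the netrins (4 of 4), Slits (4 of 4), neuropilins (4 of 4), Robo genes (4 of 4), Unc5 genes (3 of 3) and Dcc, as were 11 of 12 plexins and 21 of 26 semaphorins. The family medians ranged from -0.81 in Slits and -0.79 in Robo genes to -0.50 in neuropilins and -0.43 in semaphorins. The medians without control replicate 1 were -1.08 in Slits, -1.07 in Robo genes, -0.72 in neuropilins, -0.57 in semaphorins and -0.86 in plexins (-0.59 with all libraries). Without control replicate 3 they were -0.57 in Slits, -0.49 in Robo genes, -0.21 in neuropilins, -0.28 in semaphorins and -0.36 in plexins, and without control replicate 4 those of semaphorins and plexins were -0.26 and -0.37. With any 1 library left out the counts of netrins, Slits, neuropilins, Robo genes, Unc5 genes and Dcc were as given, while 8 to 12 plexins and 19 to 21 semaphorins were lower. None of these family counts was tested as a set. The estimates of PLXNA1, SEMA4C and SEMA6D, which are among the 52, were above 0 in 4 of the 8 fits with 1 library left out, that of plxnb2a.2 also in 4 and that of PLXNC1 in 3. The members did not vary independently of one another, as the next values show.

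**Figure D1:**
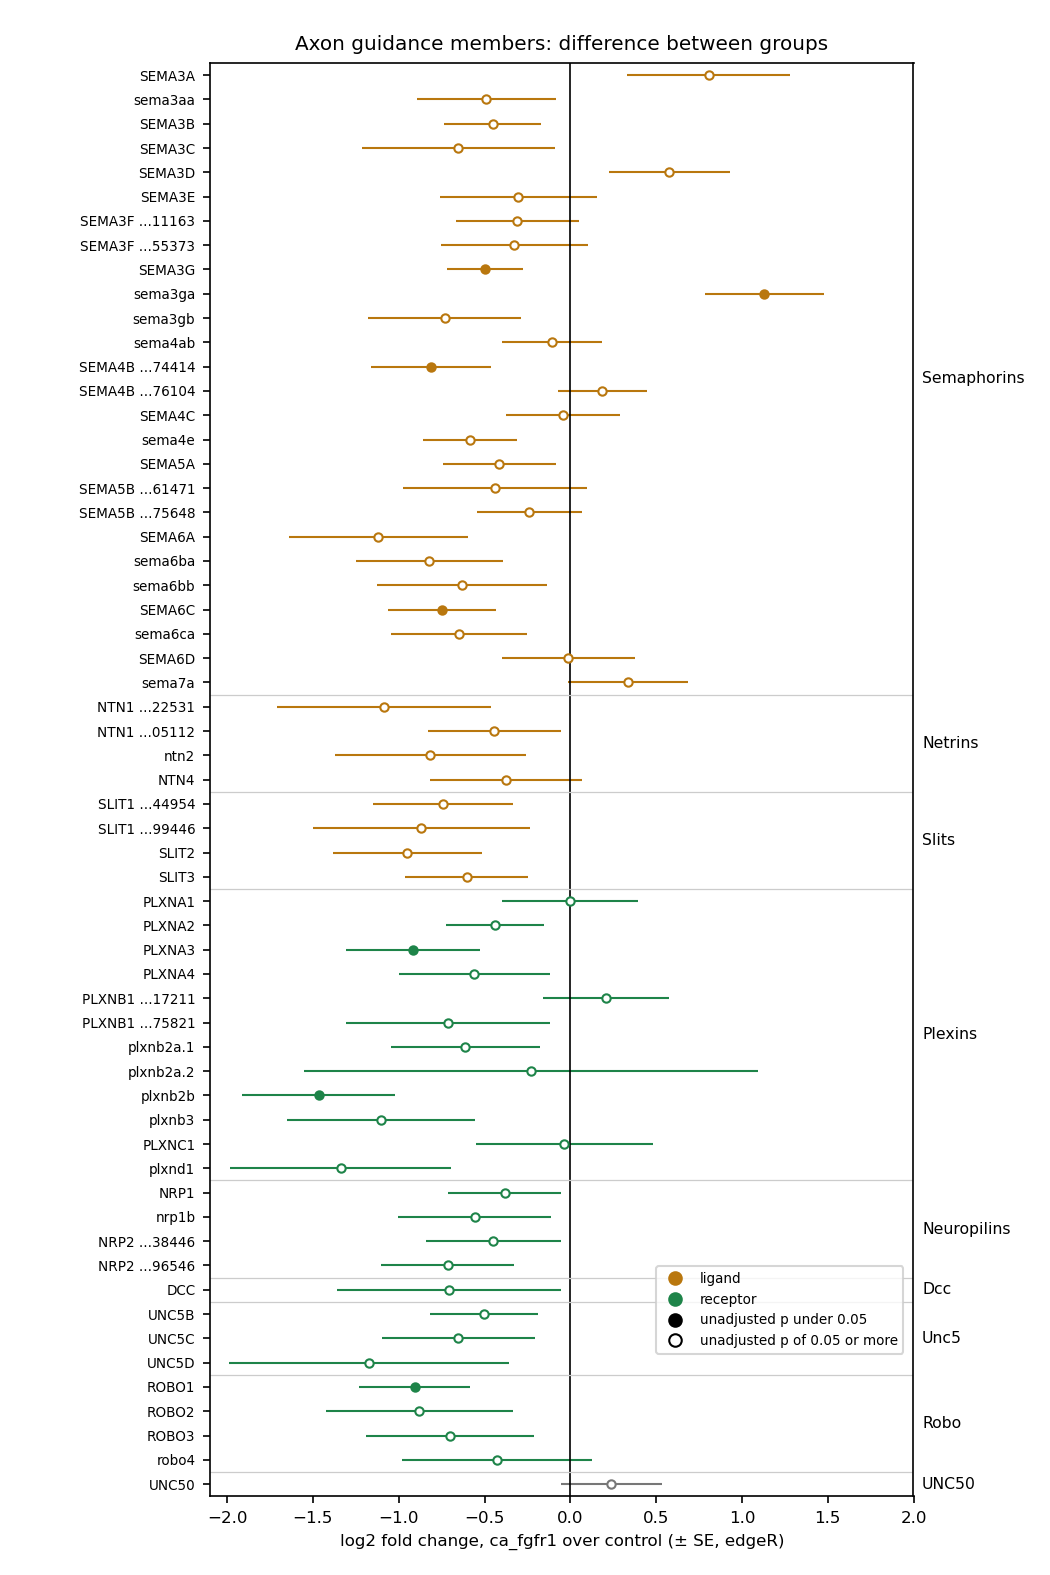
Log2 fold change of ca_fgfr1 over control for the 59 tested members, grouped by family, with ligands in brown, receptors in green and UNC50 in grey. Points are edgeR estimates, bars are SE, and filled points have an unadjusted p under 0.05; 52 points lie left of 0 and no member passed an adjusted p of 0.05. Where 2 IDs share a symbol, the last digits of the ID follow the name.

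The members varied together across libraries, also within a group. Without UNC50, 45 of 58 members (77.6%) were highest in control replicate 3 or control replicate 4, where 31% of all tested genes were highest. Likewise 45 of 58 were lowest in control replicate 1 or ca_fgfr1 replicate 2, where 38.2% of all genes were lowest. The median deviation of the members from their own mean over all libraries, in log2 CPM, was 0.14, -0.63, -0.11 and -0.17 in ca_fgfr1 replicates 1 to 4 and -0.73, 0.01, 0.84 and 0.75 in control replicates 1 to 4. Controls therefore spanned the whole range, with the lowest and the highest library of the 8 in the same group, and ca_fgfr1 replicate 1 and control replicate 2 lay between. Over all tested genes the same medians lay between -0.02 and 0.04. TMM scaling of the libraries is built to hold the bulk of genes level, so such small values largely follow from it.

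**Figure D2:**
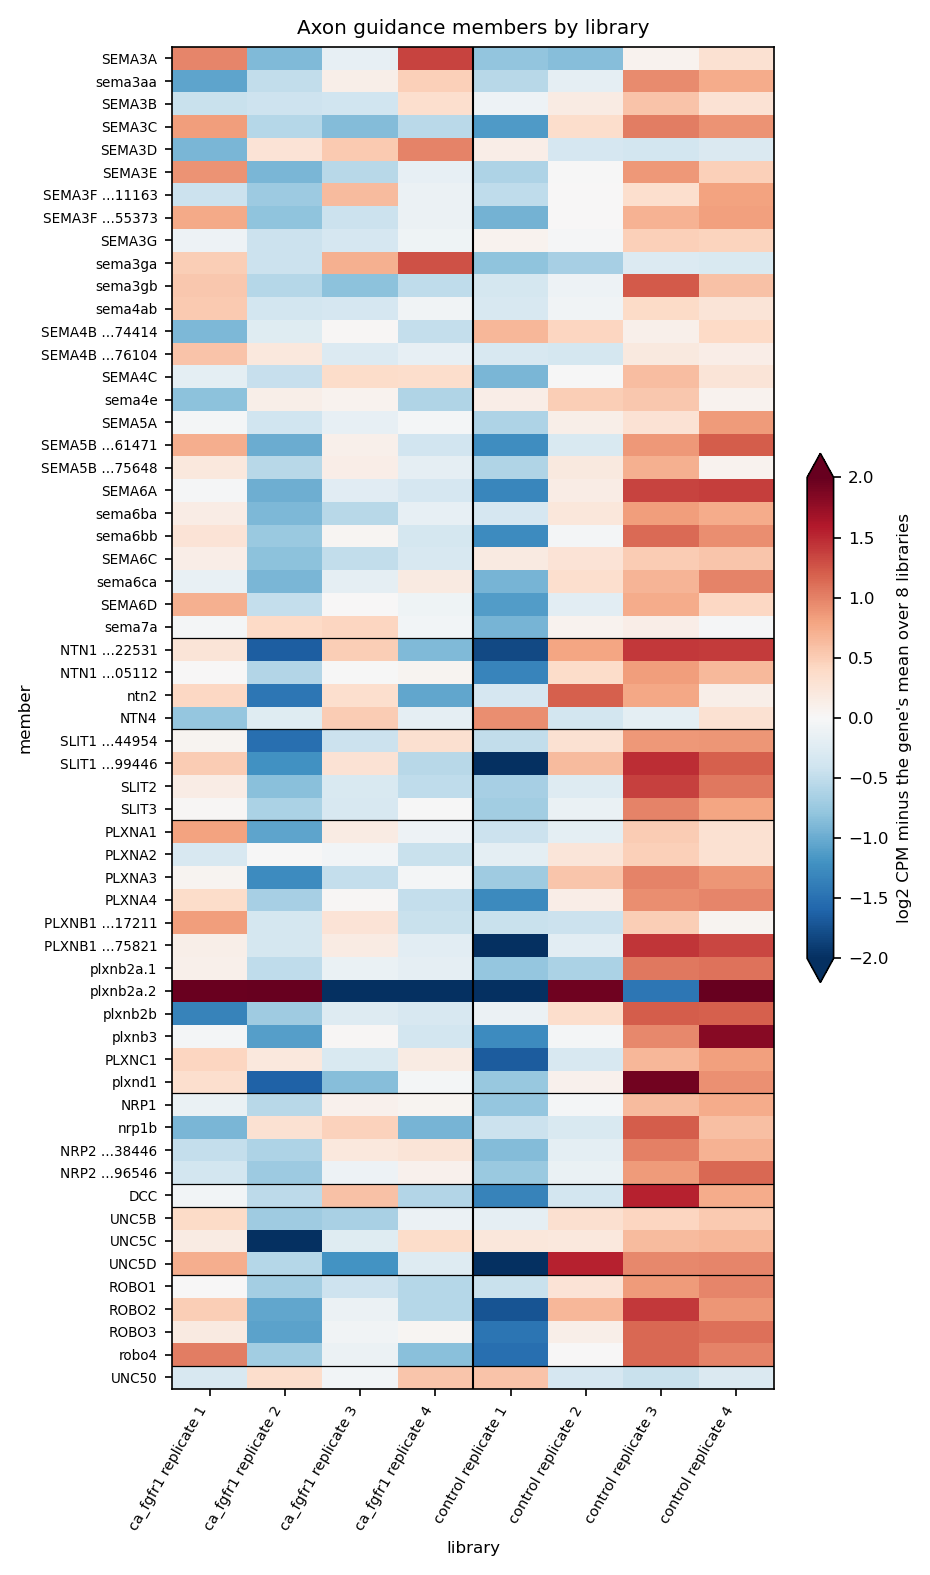
Log2 CPM of the 59 tested members in each library, relative to the gene's own mean over 8 libraries (red above, blue below), with ca_fgfr1 libraries left of the line and controls right of it. Control replicates 3 and 4 are red and control replicate 1 and ca_fgfr1 replicate 2 are blue for most members, and the colour scale ends at 2 in either direction.

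Counts of members moved with the libraries that entered the fit. Without control replicate 1, 29 of 59 members had an unadjusted edgeR p under 0.05, 27 of them lower, where 26.3% of all genes had such a p and 13.2% were lower. No member met the study's criteria (0.00541% of all genes did) or an adjusted p of 0.05 (0.0703%), the smallest adjusted p of a member was 0.144, and the median log2 fold change was -0.73. In DESeq2 without this library, a setting chosen after seeing the data, 15 members had an adjusted p of 0.05 or less, 14 of them lower and sema3ga higher, beside 8.5% of all genes. ROBO1 and PLXNA3 then met the study's criteria, as did 0.784% of all genes. At an unadjusted p under 0.05, edgeR gave 2 members without control replicate 4 (3.34% of all genes), 4 without control replicate 3 (3.15%) and 11 without ca_fgfr1 replicate 1 (6.6%). Without both control replicate 1 and ca_fgfr1 replicate 2 the count was 22, beside 18% of all genes. No member reached an adjusted p of 0.05 in edgeR in any of these fits.

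Among the secreted semaphorins of class 3, which act mostly as repellents, 8 of 11 tested genes were lower and 3 higher in ca_fgfr1. sema3ga (ENSDARG00000042545) had 15.8, 8.31, 18.3 and 27.2 CPM in ca_fgfr1 replicates 1 to 4, against 6.37, 7.02, 9.23 and 9.08 CPM in controls. Only ca_fgfr1 replicate 2 lay within the range of the controls. The log2 fold change was 1.13 ± 0.35 SE (unadjusted p = 0.00766, edgeR adjusted p = 0.801), the most positive of the members, and it stayed between 0.80 and 1.35 whichever library was left out. SEMA3G (ENSDARG00000007560), a further gene of that name, went the other way, with 27.1, 21.5, 23.1 and 27.4 CPM in ca_fgfr1, against 30.7, 28.7, 40.8 and 39.6 CPM in controls. Its groups did not overlap, although by a narrow margin (log2 fold change -0.50 ± 0.22, unadjusted p = 0.0449, edgeR adjusted p = 0.866).

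SEMA3D (ENSDARG00000017369) and SEMA3A (ENSDARG00000042210) were the other higher genes of this class. SEMA3D had 20.5, 46.8, 55.4 and 77.4 CPM in ca_fgfr1, against 42.3, 30.5, 29.8 and 31.5 CPM in controls. It was above all controls in 3 ca_fgfr1 hindbrains and below all controls in ca_fgfr1 replicate 1 (log2 fold change 0.58 ± 0.35, edgeR adjusted p = 0.866). SEMA3A had 27.4, 7.47, 12.4 and 35.8 CPM in ca_fgfr1, against 7.96, 7.63, 14.6 and 17.2 CPM in controls, and here replicates 1 and 4 of ca_fgfr1 were above every control (log2 fold change 0.81 ± 0.48, edgeR adjusted p = 0.866). The paralogue sema3aa (ENSDARG00000019235) had 23.9, 35.2, 54.1 and 69.5 CPM in ca_fgfr1, against 33.6, 44.0, 95.3 and 83.1 CPM in controls. Its groups overlapped widely (log2 fold change -0.49 ± 0.40, edgeR adjusted p = 0.884). The remaining genes of this class, SEMA3B, SEMA3C, SEMA3E, sema3gb and both IDs named SEMA3F, had log2 fold changes from -0.73 to -0.30.

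The semaphorins of classes 4 to 7 are mostly bound to the membrane. Of 15 tested, 13 (86.7%) were lower in ca_fgfr1, beside 54.1% of all genes. They include all 6 of class 6, whose members bind plexins of class A without a neuropilin. Among the 13, SEMA6D of class 6 and SEMA4C had log2 fold changes of only -0.01 and -0.04. Each changed sign in 4 of the fits with 1 library left out. SEMA6C (ENSDARG00000000189) had 4.06, 2.03, 2.58 and 2.94 CPM in ca_fgfr1, against 4.21, 4.50, 5.33 and 5.47 CPM in controls. All ca_fgfr1 libraries were below all controls, the nearest by little (log2 fold change -0.75 ± 0.32, unadjusted p = 0.0377, edgeR adjusted p = 0.866). SEMA4B ENSDARG00000074414 had 1.1, 1.79, 2.18 and 1.5 CPM in ca_fgfr1, against 3.47, 2.93, 2.31 and 2.88 CPM in controls, from 23 to 59 counts per library. It was the one gene of the 7 whose highest library was control replicate 1 (log2 fold change -0.81 ± 0.35, unadjusted p = 0.0398, edgeR adjusted p = 0.866), and without that library the log2 fold change was -0.72 (unadjusted p = 0.0637). The other ID named SEMA4B, ENSDARG00000076104, was at 36.0 ± 10.0 CPM in ca_fgfr1 and 31.6 ± 6.28 CPM in controls (SD, n = 4 each). SEMA6A (ENSDARG00000102165) was at 3.56 ± 0.937 CPM in ca_fgfr1 and 7.71 ± 5.11 CPM in controls, the most negative estimate of the semaphorins (log2 fold change -1.12 ± 0.52, unadjusted p = 0.0556, edgeR adjusted p = 0.866). The estimate without control replicate 1 was -1.44 (unadjusted p = 0.00267, edgeR adjusted p = 0.144), where 26.3% of all genes had an unadjusted p under 0.05. With any single library left out, the weakest estimate of SEMA6A was -0.83. Across members, 4 had groups that did not overlap, and in all 4 ca_fgfr1 was lower (plxnb2b, SEMA6C, SEMA4B ENSDARG00000074414 and SEMA3G). Over all tested genes 1.44% were separated in this direction, 1.9% in the other and 3.34% in either.

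Plexins are the receptors of the semaphorins. plxnb2b (ENSDARG00000036985) had 0.620, 1.02, 1.44 and 1.37 CPM in ca_fgfr1, against 1.59, 2.25, 4.21 and 4.15 CPM in controls. These came from 13 to 25 counts per ca_fgfr1 library and 17 to 85 per control library, so each value carries a wide counting error. The groups did not overlap, and the gene had the smallest p of the members (log2 fold change -1.47 ± 0.45, unadjusted p = 0.00720, edgeR adjusted p = 0.789). PLXNA3 (ENSDARG00000007172), which in zebrafish guides motor axons out of the spinal cord, had 43.0, 17.2, 29.6 and 40.4 CPM in ca_fgfr1, against 25.1, 60.9, 82.7 and 76.6 CPM in controls. Control replicate 1 lay among the ca_fgfr1 libraries and the other 3 controls above them all (log2 fold change -0.91 ± 0.39, unadjusted p = 0.0394, edgeR adjusted p = 0.866). Without control replicate 1 its log2 fold change was -1.17 (unadjusted p = 0.00266, edgeR adjusted p = 0.144), in a fit where 26.3% of all genes had an unadjusted p under 0.05. The weakest estimate with any single library left out was -0.73.

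**Figure D3:**
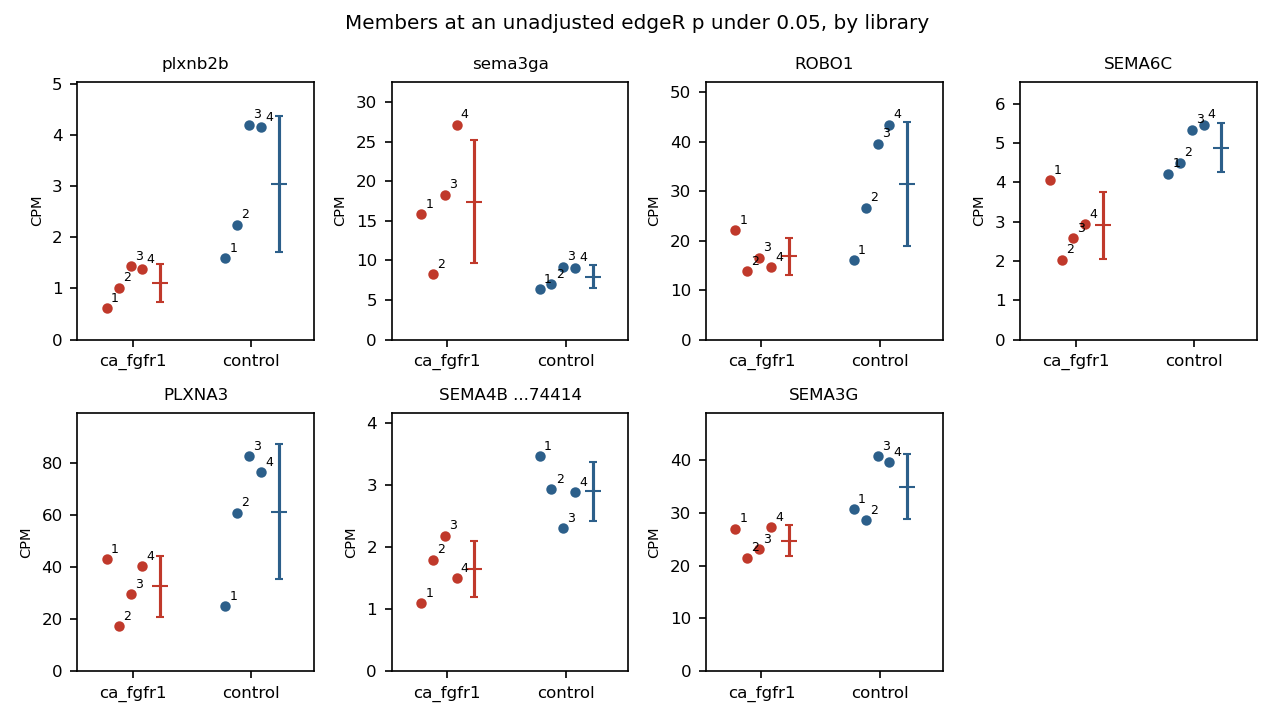
CPM of the 7 members with an unadjusted edgeR p under 0.05 in each library, ca_fgfr1 left and control right, with the replicate number beside each point and the mean ± SD (n = 4) at the right of each group. The groups do not overlap for plxnb2b, SEMA6C, SEMA4B ENSDARG00000074414 and SEMA3G, and control replicate 1 lies among the ca_fgfr1 libraries for ROBO1 and PLXNA3.

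Among the tandem genes of plxnb2a, the counts of plxnb2a.2 split the embryos of both groups. It (ENSDARG00000077090) had 47, 41, 0 and 0 counts in ca_fgfr1 replicates 1 to 4, against 0, 32, 2 and 65 counts in controls. Each group thus held 2 hindbrains with 32 or more counts and 2 with at most 2. A count of 0 in these libraries allows up to 0.172, 0.196 and 0.281 CPM in ca_fgfr1 replicate 3, ca_fgfr1 replicate 4 and control replicate 1, for counting error only. Its neighbour plxnb2a.1 (ENSDARG00000003811) was detected in every library, at 11.2 ± 1.93 CPM in ca_fgfr1 and 17.1 ± 10.9 CPM in controls (SD, n = 4 each), and its log2 fold change was -0.61 ± 0.43 SE (adjusted p = 0.870 in edgeR). It ranged from 8.79 to 13.5 CPM in ca_fgfr1, and in controls it was at 7.31 and 8.04 CPM in replicates 1 and 2 and at 26.3 and 26.8 CPM in replicates 3 and 4. Reads shared by such close copies were divided between them by the counting program, so the split is uncertain.

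Class 3 semaphorins reach plexins through neuropilins. NRP2 ENSDARG00000038446 had 36.6, 33.2, 58.9 and 61.0 CPM in ca_fgfr1, against 28.0, 44.7, 103 and 83.1 CPM in controls. The groups overlapped, with control replicate 1 lowest of all (log2 fold change -0.45 ± 0.39, edgeR adjusted p = 0.884). NRP2 ENSDARG00000096546, NRP1 and nrp1b were likewise lower by estimate, with log2 fold changes of -0.71, -0.38 and -0.56.

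Netrins are made in the ventral midline and its surroundings. NTN1 ENSDARG00000105112 had 60.8, 40.3, 59.9 and 62.9 CPM in ca_fgfr1, against 24.1, 77.8, 108 and 94.3 CPM in controls. In 3 controls it was above every ca_fgfr1 library, and in control replicate 1 below all of them (log2 fold change -0.44 ± 0.39, edgeR adjusted p = 0.884). The second ID, NTN1 ENSDARG00000022531, had 26.5, 7, 31.1 and 12 CPM in ca_fgfr1, against 6.28, 38.2, 59.3 and 58.4 CPM in controls (log2 fold change -1.08 ± 0.62, edgeR adjusted p = 0.866). It too was above every ca_fgfr1 library in 3 controls and below all of them in control replicate 1. Without control replicate 1 the log2 fold changes of these IDs were -0.74 and -1.44 (unadjusted p = 0.00527 and 0.00886, edgeR adjusted p = 0.144 for both). An unadjusted edgeR p under 0.05 was then found in 26.3% of all genes. The weakest estimates of these IDs with any single library left out were -0.25 and -0.84.

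Of the tested netrin receptors, DCC and UNC5D had few counts, while UNC5B had 83 to 259 per library. DCC (ENSDARG00000104282), the attractive receptor, had 0.620, 0.418, 1.03 and 0.392 CPM in ca_fgfr1, against 0.187, 0.477, 2.10 and 1.17 CPM in controls. These were 6 to 18 counts in ca_fgfr1 and 2 to 41 in controls, and the groups overlapped (log2 fold change -0.71 ± 0.65, edgeR adjusted p = 0.893). The estimate was -0.06 without control replicate 3 and -1.09 without ca_fgfr1 replicate 3. UNC5B (ENSDARG00000033327), a repulsive receptor that is also found in vessels, had 11.6, 5.32, 5.57 and 8.10 CPM in ca_fgfr1, against 7.78, 11, 11.9 and 12.6 CPM in controls. Here ca_fgfr1 replicate 1 and control replicate 1 were on the far side of their groups (log2 fold change -0.50 ± 0.32, edgeR adjusted p = 0.866). For UNC50, which is no guidance gene, the log2 fold change was 0.24 ± 0.30 (edgeR adjusted p = 0.926), with 41.5, 66.1, 50 and 76.3 CPM in ca_fgfr1, against 76.8, 41.0, 38.0 and 42.4 CPM in controls. It ran against the guidance genes across the controls, being highest in control replicate 1.

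Slits and their Robo receptors were lower by estimate in ca_fgfr1 in all 8 genes. SLIT3 (ENSDARG00000034268) had 41.0, 26.1, 32.2 and 40.3 CPM in ca_fgfr1, against 24.8, 36.9, 80.4 and 70 CPM in controls. Only control replicates 3 and 4 were above the range of ca_fgfr1 (log2 fold change -0.60 ± 0.36, edgeR adjusted p = 0.866). SLIT2 (ENSDARG00000004246) had the same pattern, with 31.9, 16.0, 23.2 and 20.3 CPM in ca_fgfr1, against 18.1, 24.1, 74.5 and 59.7 CPM in controls (log2 fold change -0.95 ± 0.43, edgeR adjusted p = 0.866). The IDs named SLIT1, ENSDARG00000044954 and ENSDARG00000099446, had log2 fold changes of -0.74 and -0.87. Without control replicate 1 the log2 fold change was -0.83 for SLIT3, -1.20 for SLIT2 and -0.96 and -1.24 for the SLIT1 IDs (unadjusted p from 0.00737 to 0.0274, edgeR adjusted p from 0.144 to 0.156). In that fit 26.3% of all genes had an unadjusted edgeR p under 0.05. The weakest estimates with any single library left out were -0.35 for SLIT3, -0.59 for SLIT2 and -0.51 and -0.55 for the SLIT1 IDs.

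ROBO1 (ENSDARG00000026784), a receptor for Slit repulsion, had 22.1, 13.8, 16.5 and 14.7 CPM in ca_fgfr1, against 16.1, 26.6, 39.6 and 43.4 CPM in controls. Controls 2 to 4 were above all ca_fgfr1 libraries, and control replicate 1 was within their range (log2 fold change -0.91 ± 0.32, unadjusted p = 0.0170, edgeR adjusted p = 0.866). Without control replicate 1 the log2 fold change was -1.12 (unadjusted p = 0.000916, edgeR adjusted p = 0.144), and in DESeq2 without that library the adjusted p was 0.00352. Of all genes, 26.3% had an unadjusted edgeR p under 0.05 without that library. In DESeq2 8.5% of all genes then had an adjusted p of 0.05 or less. ROBO2 and ROBO3, of which ROBO3 is needed for hindbrain axons to cross the midline, had log2 fold changes of -0.88 and -0.70, and of -1.22 and -1.02 without control replicate 1 (edgeR adjusted p = 0.144 for both). The weakest estimates with any single library left out were -0.72 for ROBO1, -0.54 for ROBO2 and -0.44 for ROBO3. robo4 (ENSDARG00000009387), known mainly from vessels but also present in the zebrafish neural tube, had 128, 38.6, 57.6 and 35.0 CPM in ca_fgfr1, against 22.1, 62.8, 139 and 125 CPM in controls. It spanned nearly the same range in both groups (log2 fold change -0.43 ± 0.55, edgeR adjusted p = 0.930).

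Markers of other tissues were read beside these genes, since the dissections hold more than neural tube. Per the study's methods, each dissection had been checked by qPCR, and only those judged free of contamination were sequenced. The vasculature list, of which 6 of 8 genes matched and all 6 were tested, had a summed level of 74.9 to 107 CPM in ca_fgfr1 and 73.0 to 169 CPM in controls, and its highest libraries were control replicates 4 and 3 (169 and 128 CPM). plxnd1 (ENSDARG00000086057), a semaphorin receptor of endothelial cells, followed in part, with 1.72, 0.359, 0.689 and 1.31 CPM in ca_fgfr1, against 0.749, 1.43, 5.44 and 2.64 CPM in controls (log2 fold change -1.34 ± 0.64, edgeR adjusted p = 0.866). robo4 did not follow in ca_fgfr1 replicate 1, where it was at 128 CPM and the vasculature list at 74.9 CPM. The floor plate list, with 9 tested IDs, was at 137 to 235 CPM in ca_fgfr1 and 177 to 265 CPM in controls, highest in control replicate 3 and lowest in ca_fgfr1 replicate 4. The neuron list was at 3340 to 4150 CPM in ca_fgfr1 and 3520 to 5310 CPM in controls, and the progenitor list at 5740 to 7670 CPM in ca_fgfr1 and 5990 to 9600 CPM in controls. Both sums were highest in control replicate 1, where 29 of 58 guidance genes were lowest. Yet the median deviation of the neuron list was also lowest there (-0.78). The sums rest on a few abundant genes: the 2 IDs named STMN1 were at 2432 and 1489 CPM and PCNA at 4991 CPM in that library, more than in any other. ELAVL3, which marks differentiating neurons, was at 512, 139, 497 and 486 CPM in ca_fgfr1 replicates 1 to 4, against 183, 661, 745 and 796 CPM in controls. It was thus lowest in the same 2 libraries as most guidance genes. The neuron list as a whole was not low in ca_fgfr1 replicate 2, where its median deviation was 0.19. The median deviation of the progenitor list in control replicate 1 was -0.25, opposite to its sum. The otic list, with 8 tested IDs, was at 239 to 551 CPM in ca_fgfr1 and 136 to 509 CPM in controls. The otic sum was lowest in control replicate 1 and ca_fgfr1 replicate 2 (median deviations of -1.85 and -0.64). Its median deviation was 0.88, 0.85 and 0.51 in control replicates 2 to 4. The sum was highest in ca_fgfr1 replicate 1 (median deviation of 0.48), so the list followed the guidance genes only in part. The blood list, with 5 of 6 matched IDs tested, was at 4.9 to 93.9 CPM in ca_fgfr1 and 4.59 to 176 CPM in controls. It too was lowest in control replicate 1 and ca_fgfr1 replicate 2, and it was highest in control replicate 3. The muscle list, in which MYOD1 had at most 0.0598 CPM in any library, reached 635 CPM in control replicate 4, against at most 83.8 CPM in ca_fgfr1 and 31.5 CPM in the other controls. The epidermis list was at 7060 to 13500 CPM in ca_fgfr1 and 8740 to 24300 CPM in controls, highest in control replicate 1. The segment boundary list was at 899 to 1640 CPM in ca_fgfr1 and 1250 to 1510 CPM in controls. For the hindbrain identity list these ranges were 675 to 808 CPM and 761 to 1030 CPM. The neural crest list was at 211 to 290 CPM in controls. Its sum rose from ca_fgfr1 replicate 1 to 4 (149, 253, 345 and 391 CPM), as did SEMA3D and sema3aa. Among controls it was lowest in replicate 1, where SEMA3D was highest and sema3aa lowest. The part of these tissues in the results was not tested.

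Paralogues were also compared within each library, which removes whatever shifts both genes alike. All 17 pairs of tested members with the same family number and letter were taken, a choice made after seeing the values. In 3 pairs the ratios did not overlap between groups. Of these, 2 share sema3ga and the other holds plxnb2b. Both genes had the smallest unadjusted edgeR p of the members, so the ratios are no separate evidence. Each pair was also given an exact two-sided p, from reassigning the group labels in 70 ways. It was 0.0286 for each of the 3 pairs, the smallest value that 70 reassignments can give. After adjustment over the pairs it was 0.162 for these 3, and 0 pairs reached an adjusted p of 0.05. With that floor and 17 pairs an adjusted p of 0.05 was barely attainable, so its absence decides nothing. The ratios are therefore given as a description only. The log2 ratio of SEMA3G to sema3ga was 0.77, 1.36, 0.33 and 0.01 in ca_fgfr1 and 2.25, 2.01, 2.13 and 2.11 in controls. Controls were close together at 2.13 ± 0.10 and ca_fgfr1 lower at 0.62 ± 0.58 (SD, n = 4 each), a difference of -1.51. The log2 ratio of sema3ga to sema3gb was 2.2 ± 0.93 in ca_fgfr1 and 0.49 ± 0.47 in controls, a difference of 1.70. That of plxnb2a.1 to plxnb2b was 3.25 ± 0.64 in ca_fgfr1 and 2.29 ± 0.42 in controls, a difference of 0.95. The other 14 pairs overlapped, including SEMA3A over sema3aa (difference 1.11).

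**Figure D4:**
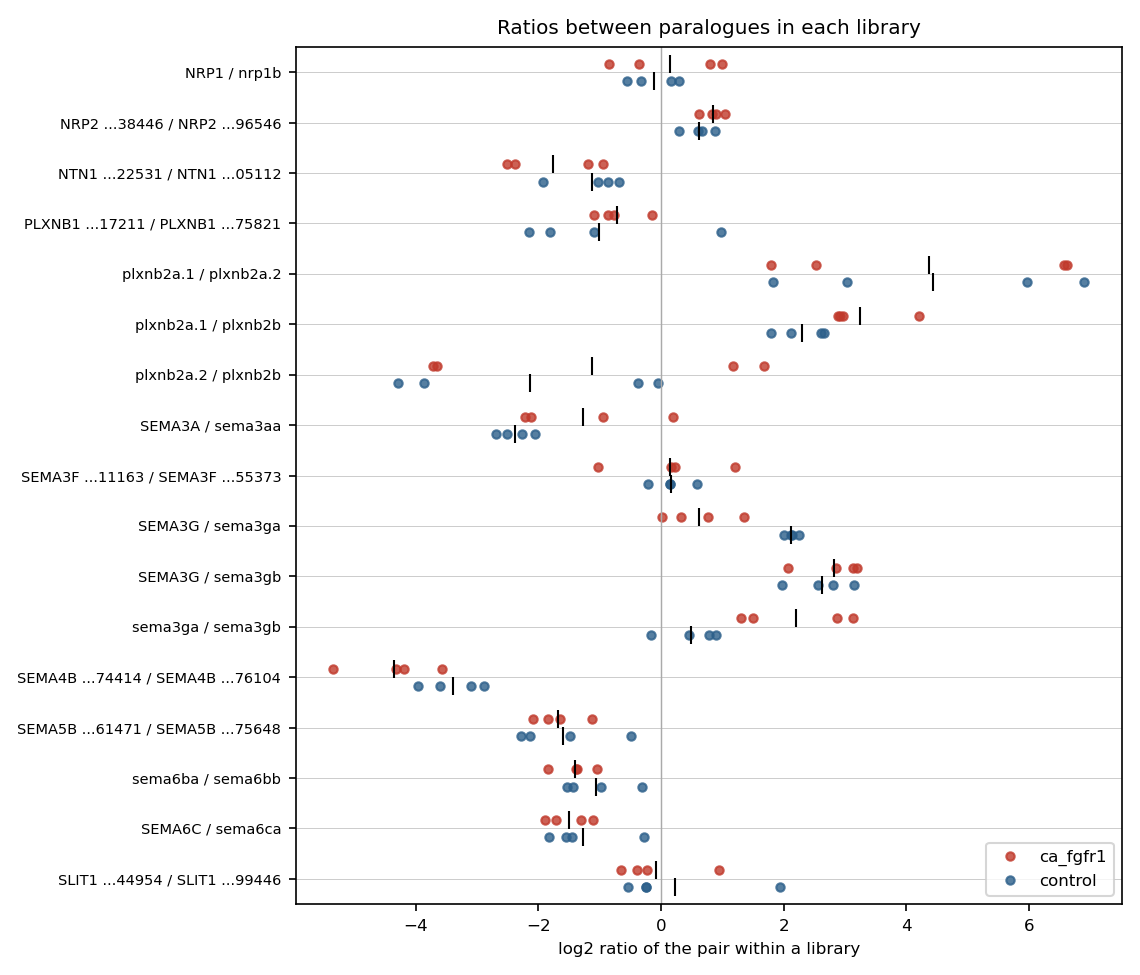
Log2 ratio of 2 paralogues within each library, for 17 pairs, with ca_fgfr1 (red) above control (blue) and a bar at each group mean. The groups do not overlap for SEMA3G over sema3ga, sema3ga over sema3gb and plxnb2a.1 over plxnb2b; ratios of plxnb2a.2 spread widely in both groups, and this gene had at most 2 counts in 4 libraries.

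Other genes of the guidance pathway were taken from a list of 85 (co-receptors, adhesion molecules, cytoplasmic effectors and the chemokine pair Cxcl12 and Cxcr4). It matched 82 IDs, of which 77 were tested and 0 reached an adjusted p of 0.05 in edgeR. The log2 fold change was below 0 in 51 (66.2%, beside 54.1% of all genes) and above 0 in 26, with a median of -0.33. At an unadjusted p under 0.05, 5 were lower and 1 higher (7.79% in all, beside 5.34% of all genes). The 5 were DSCAM ENSDARG00000028118, FLRT2 ENSDARG00000079355, cntn2, mical2b and MICAL3 ENSDARG00000097017. In mammals DSCAM acts as a netrin receptor and FLRT2 as a ligand of Unc5 receptors, Cntn2 is an adhesion protein of axons, and Mical enzymes act on actin downstream of plexins. The other tested IDs named DSCAM and FLRT2 had log2 fold changes of -0.90 and 0.08 (unadjusted p = 0.243 and 0.892). RND3 (ENSDARG00000076799), whose protein binds plexins, was the higher gene, at 195 ± 15.1 CPM in ca_fgfr1 and 130 ± 17 CPM in controls (SD, n = 4 each; log2 fold change 0.58 ± 0.19, unadjusted p = 0.0110, edgeR adjusted p = 0.866), while its namesake ENSDARG00000007396 had a log2 fold change of -0.72. By library, the median deviation of this list was -0.68 in control replicate 1 and 0.56 and 0.53 in control replicates 3 and 4, which were also the lowest and the 2 highest libraries of the guidance families.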

How the data were processed

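Per the labels and the study's methods, single-end reads were aligned by the authors to GRCz10 with STAR 2.5.1b, and gene counts were estimated with RSEM 1.2.31. The deposited values are expected counts that the authors had rounded to whole numbers, not scaled for depth. The 8 columns were assigned by reading C as control and F as ca_fgfr1. RSEM divides reads between similar genes, so values of close paralogues are uncertain, and use of strand was not stated. CPM does not correct for gene length, so an order of genes by CPM is not an order of transcript levels and served only to choose which members to give in full.

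Symbols came from a table that named 26350 of 32189 IDs. Of the members, 47 carry capital symbols without zebrafish paralogue endings, and 10 symbols were shared by 2 members, which are printed with their IDs. No transcript or protein sequences were at hand.

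For the main test, edgeR 4.0.16 (R 4.3.3) was run with filterByExpr, TMM scaling and its quasi-likelihood F-test. All 8 libraries entered, no covariate was used, and fold changes are ca_fgfr1 over control, with Benjamini-Hochberg adjustment over all 18075 tested genes. SE was taken from the estimate and its F statistic. CPM divides each count by the library size after TMM scaling. DESeq2 1.42.0, limma 3.58.1 (voom), other scalings, filters, a replicate block and left-out libraries were alternatives. Log2 CPM used a prior count of 2. Values in every library were given for members with an unadjusted p under 0.05, members whose groups did not overlap and the member of each family with the highest mean CPM; others given in full (SEMA3A, SEMA3D, plxnd1, plxnb2a.2, the second NTN1 ID and SLIT2) were chosen after their values were seen. The members and lists were chosen with earlier results of these data known. The steps were tested on simulated data, in which genes varied independently and no library was set apart. That test therefore does not cover the shared variation between members described above. The chi-square per degree of freedom between libraries of a group was at least 25.6, so no library was a copy of another in its group. Libraries of different groups were not compared in this way. P-values measure the spread between libraries of single embryos, which also holds differences in dissection and amplification.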

Additional observations from a re-analysis of the deposited data

Results flagged for a closer look

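In 118 groups of 4 libraries, 6 held a library set apart from the others by a gap that took most of the group's range (Dixon's test at the 95% level). Chance flags about 1 in 20 such groups. NTN1 ENSDARG00000105112 was at 40.3 CPM in ca_fgfr1 replicate 2, against 59.9 to 62.9 CPM in the other ca_fgfr1 libraries. SEMA3B was at 12.6 CPM in ca_fgfr1 replicate 4, against 7.30 to 7.53 CPM. In ca_fgfr1 replicate 1, SEMA3C was at 2.91 CPM, against 0.804 to 1.04 CPM, and sema3gb at 6.35 CPM, against 2.41 to 3.01 CPM. In control replicate 1, SEMA3D was at 42.3 CPM, against 29.8 to 31.5 CPM in the other controls, and UNC50 at 76.8 CPM, against 38.0 to 42.4 CPM.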

How the results depend on the processing

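No member met the study's criteria or an adjusted p of 0.05 in any edgeR or limma-voom fit. DESeq2 gave 0 and 0 with all libraries, and 2 and 15 without control replicate 1, a setting chosen after seeing the data, as was limma-voom without that library (0 and 0). The count at an unadjusted p under 0.05, 7 in the main test, was 12 with DESeq2 and ranged from 2 (without control replicate 4) to 29 (without control replicate 1) when 1 library was left out, including 4 without control replicate 3 and 11 without ca_fgfr1 replicate 1. It was 22 without both control replicate 1 and ca_fgfr1 replicate 2 (18% of all genes). Without control replicate 1 it was 30 in DESeq2 and 33 in limma-voom, beside 27.6% and 27.5% of all genes. Members with groups that did not overlap, 4 in the main test, numbered 1 with library totals only, 2 under a filter of 5 CPM in 4 libraries, 4 to 17 with 1 library left out (7 without ca_fgfr1 replicate 4), 19 without both libraries and 17 in DESeq2 or limma-voom without control replicate 1. Over all genes the shares were 3.34% in the main test, 3.4% with library totals only and 2.85% under that filter. They were 4.23% to 21.5% with 1 library left out, including 5.46% without ca_fgfr1 replicate 4 and 21.5% without control replicate 1 in each program. Without both libraries the share was 23.2%. The median log2 fold change stayed below 0, from -0.77 (limma-voom without control replicate 1) to -0.36 (without control replicate 3). Estimates near 0 changed sign: without ca_fgfr1 replicate 1, PLXNB1 ENSDARG00000017211 was at -0.11 (up to 0.42 without other libraries) and SEMA4B ENSDARG00000076104 at -3.05e-05 (up to 0.27). The estimate for plxnb2a.2 was 0.07, 0.60, 0.14 and 0.13 without control replicates 2 and 4 and ca_fgfr1 replicates 3 and 4, and at its lowest -1.22 without both libraries above. With 1 library left out, estimates that were below 0 reached 0.22 in PLXNA1, 0.17 in SEMA4C, 0.26 in SEMA6D and 0.28 in PLXNC1. The cause was not tested. The 4 pairs of libraries with the same replicate number had correlations of -0.29, -0.01, 0.22 and 0.19 between their deviations. Pairs with different numbers were not compared, so these values cannot show whether the numbers pair the libraries. A fit with the replicate block gave 3 members that had an unadjusted p under 0.05 and 0 with an adjusted p of 0.05, beside 3.24% and 0.0111% of all genes. Members with few counts, such as DCC (2 to 41) and plxnb2b (13 to 85), carry a wide counting error.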
